A study of Mus musculus with 40 samples.

Results

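Whole-lung RNA from C3H mice was compared on 20 one-colour arrays, to ask for which genes the response to an inhaled allergen differed between 6 h and 24 h. The contrast was the allergen effect at 24 h, allergen minus PBS, minus the allergen effect at 6 h. It is called the interaction here, so a negative interaction means that a gene stood lower against its PBS control at 24 h than at 6 h. These 20 arrays form 4 groups of 5 within a series of 40 arrays, whose other 20 arrays hold the same design in AJ mice. The C3H groups were PBS at 6 h, allergen at 6 h, PBS at 24 h and allergen at 24 h after aspiration into the lung, so the controls had also undergone aspiration. The treatment is called allergen because array titles abbreviate it as OVA and descriptions as HDM. Strain was taken from the titles, since all descriptions name AJ. The labels do not say that each array is a separate mouse, so the p-values measure the spread between these arrays, which may be partly technical. Neither age nor sex was used here, and each group is known only by strain, treatment and time.

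An inhaled allergen sets off a response in stages. Resident macrophages, dendritic cells and epithelial cells sense it through receptors such as Toll-like receptors and C-type lectins, and signal through the adaptor Myd88 and the transcription factor NF-kB to make chemokines and cytokines that draw neutrophils from the blood. The same pathway turns on its own inhibitors, so its early messages are short-lived. Later come alternatively activated macrophages, mucus production and, in some cells, division. An array of whole lung sums all cell types, so fewer cells of a type and less RNA per cell cannot be told apart.

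Values are log2(intensity + 16), where intensity is the deposited signal of a gene's brightest probe set. A gene that is barely above background stands near 4 on this scale, and its fold changes are understated. Errors of differences are standard errors from limma, and adjusted p-values come from its moderated test over all 12393 genes, with a threshold of 0.05. Genes past it are said to have risen, fallen or changed. Alveolar epithelium and club cell genes averaged 10.40 to 11.10 in the 4 groups, the highest of the cell type lists, so defining genes of the labelled tissue were abundant. One C3H array, replicate 2 of PBS at 6 h, stood apart: its mean correlation with its own group was 0.938, against 0.956 to 0.978 for the other 19.

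The interaction passed in 109 of 12393 genes, 0.88% of those tested. In 55 of them (0.444%) the allergen effect was lower at 24 h than at 6 h, and in 54 (0.436%) it was higher. The lower set held the neutrophil chemokines Cxcl2, Cxcl1 and Cxcl5, the chemokine Ccl3, the cytokines Tnf and Il1b, the receptors Clec4e, Cd14 and Trem1, and the interferon-induced GTPases Gbp2b, Iigp1 and Irgm1. The 5 largest interactions of the higher set were those of the chitinase-like protein Chil4, the eosinophil-associated ribonuclease Rnase2a, the heat shock gene Hspa1b, the vesicle trafficking gene Vps45 (1.34 ± 0.32, passing in 13 of 20 fits without 1 array) and the chemokine Ccl12. Interactions in the lower set ran from -0.56 for Txnrd1, a thioredoxin reductase, to -2.58 for Rassf1, a Ras association domain protein known as a tumour suppressor. In the higher set they ran from 0.52 to 1.96.

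How many genes passed depended on single arrays, but the members differed in this. The count was 29 without replicate 1 of allergen at 6 h, 56 without replicate 2 of PBS at 6 h (20 higher and 36 lower), and 151 without replicate 4 of allergen at 24 h. It was 32 (6 higher and 26 lower) when the spread was estimated from the C3H arrays alone. No sign changed in any of these fits. In all 20 fits that left out 1 C3H array, 27 genes passed, 19 lower and 8 higher, and most of what follows is about them. Of these 27, 16 also passed in each of the 10 other settings in which they were tested. With C3H arrays alone, Cldn4, Il33, Selp, Tnfaip2, Pole, Mid1ip1, Maf1, Hspa1b and Chil4 did not pass. With a pseudocount of 1, Ccl3 and Clec4e did not pass. Maf1 also did not pass with the mean of a gene's probe sets, nor Chil4 with array weights. The 19 were Rassf1, Cxcl2, Ccl3, Tnf, Clec4e, Cd14, Cldn4, Gbp2b, Trem1, Il33, Cd209a, Steap1, Selp, Irgm1, Tnfaip2, Pdzk1ip1, Kazn, Tnip1 and Myd88. The 8 were Chil4, Hspa1b, Ccn2, Alas1, Plin3, Pole, Mid1ip1 and Maf1. Of the genes named, Steap1, Tnfaip2, Pdzk1ip1, Kazn, Myd88, Alas1, Plin3, Pole, Mid1ip1 and Maf1, and below Igfbp3, Bmp7, Mcm7, Tk1, Thnsl2, Dspp, Mx1 and Mx2, were chosen after their values were seen. At the threshold itself, the last genes inside were Dspp (-0.90), Il1f9 (-1.07) and Fdps (0.94), and the nearest outside were Ceacam1 (-0.82), Ndufb3 (0.67) and H2az2 (0.70).

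**Figure D1:**
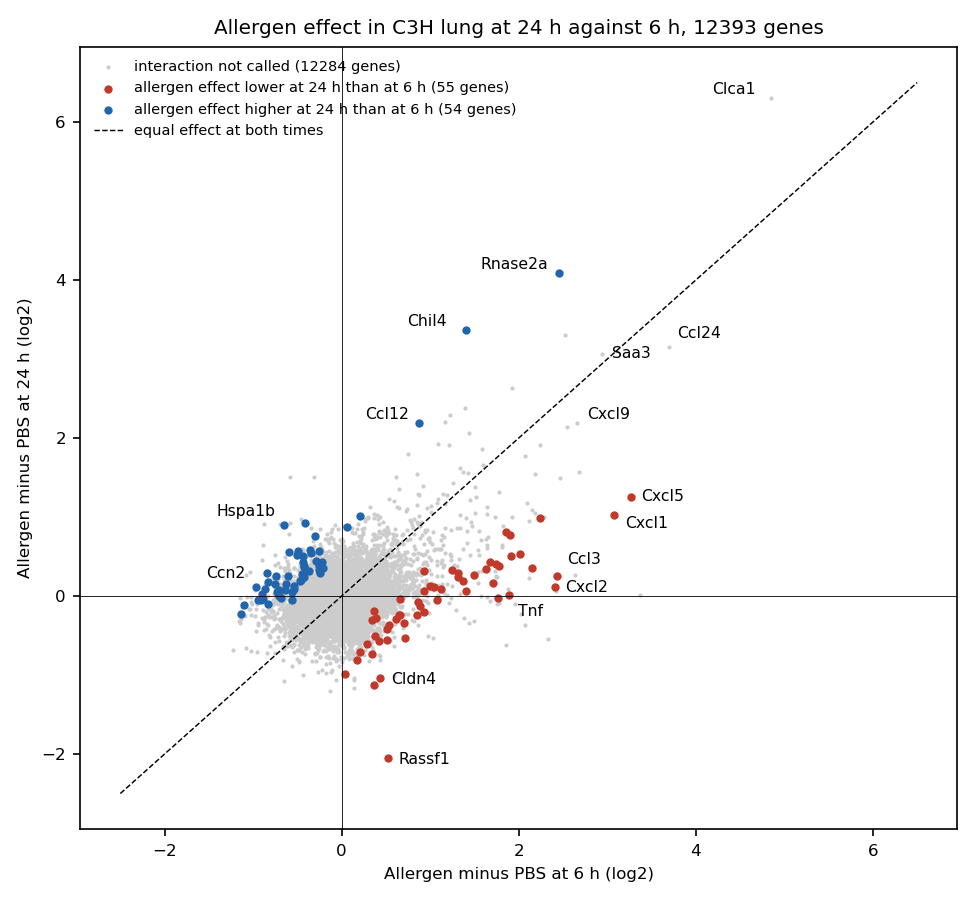
Allergen effect in C3H lung at 6 h (horizontal) and at 24 h (vertical), both as log2 differences between group means of 5 arrays, for 12393 genes. Red points are the 55 genes with a lower and blue points the 54 with a higher effect at 24 h; most red points lie right of 0 and near the horizontal axis, and Rassf1 stands alone at -2.05 on the vertical axis.

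Sequences upstream of 4 genes of the lower set are shown because these genes belong to the neutrophil chemokines and the interferon-induced GTPases, and because binding elements of NF-kB or of interferon-regulated factors were found in them. They were chosen after the matches were seen. Each is the 250 bases before the annotated start of the gene, 5′ to 3′ on the strand of the gene, from RefSeq on build GRCm38.p6. Capitals mark a match to the NF-kB element (GGG, then any 2 bases, then TTTCC) or to the interferon element (GAAA, any 2 bases, GAAA) on either strand. The windows are chr5:90903649-90903898 for Cxcl2 and chr5:90890995-90891244 for Cxcl1, both on the plus strand, chr11:48871421-48871670 on the minus strand for Irgm1, and chr3:142594597-142594846 on the plus strand for Gbp2b.
Cxcl2: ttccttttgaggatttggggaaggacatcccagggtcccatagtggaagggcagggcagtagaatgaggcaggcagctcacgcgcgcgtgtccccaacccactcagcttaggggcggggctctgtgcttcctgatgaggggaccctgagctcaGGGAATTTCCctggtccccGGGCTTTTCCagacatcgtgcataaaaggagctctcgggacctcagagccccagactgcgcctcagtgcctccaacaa
Cxcl1: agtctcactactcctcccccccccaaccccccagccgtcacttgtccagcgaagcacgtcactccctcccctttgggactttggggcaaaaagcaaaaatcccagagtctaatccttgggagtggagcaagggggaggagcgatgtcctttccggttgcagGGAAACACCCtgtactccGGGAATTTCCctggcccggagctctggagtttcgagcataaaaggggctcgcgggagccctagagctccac
Irgm1: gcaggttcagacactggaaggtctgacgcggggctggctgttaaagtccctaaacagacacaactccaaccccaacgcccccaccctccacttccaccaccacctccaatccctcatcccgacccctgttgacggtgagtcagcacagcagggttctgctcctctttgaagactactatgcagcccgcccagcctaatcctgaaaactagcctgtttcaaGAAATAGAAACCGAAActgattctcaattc
Gbp2b: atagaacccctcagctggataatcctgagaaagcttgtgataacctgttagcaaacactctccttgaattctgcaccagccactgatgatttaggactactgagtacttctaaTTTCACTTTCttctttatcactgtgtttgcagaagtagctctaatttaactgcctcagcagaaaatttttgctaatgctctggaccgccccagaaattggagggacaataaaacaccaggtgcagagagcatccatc

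Cxcl2 and Cxcl1, neighbours on chromosome 5, each held 2 NF-kB matches, starting 97 and 78 bases before the start in Cxcl2 and 89 and 71 bases before it in Cxcl1. Irgm1 held 2 interferon elements that overlap, 30 and 24 bases before its start, and Gbp2b held 1, at 137 bases. Of 9887 genes tested that have such a promoter in the table, 1.78% held the NF-kB element, against 2 of 45 (4.44%) in the lower set. The interferon element was in 3.35% of all and in 3 of 45 (6.67%) of the lower set. In the higher set, 0 of 43 promoters held the NF-kB element and 1 held the interferon element. Other elements searched on both strands were in the lower set as follows: the CRE (TGACGTCA) in 0 of 45 promoters against 2.53% of all, the E-box (CACGTG) in 3 against 9.19%, and the cell cycle element CHR (TTTGAA) in 7 against 13.8%. The STAT6 element (TTC, any 4 bases, GAA) was in 2 of 45 against 5.85%, and the heat shock element (GAA, any 2 bases, TTC, any 2 bases, GAA) in 2 against 0.465%. A match is a string of letters and shows no binding.

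The neutrophil chemokine list held ligands that call neutrophils through the receptor Cxcr2, and also Cxcr2 itself and the growth factor Csf3. Of its 6 measured members, 3 had a lower effect at 24 h and 0 a higher one, against 0.444% and 0.436% of all genes. The median allergen effect of the list was 1.56 at 6 h and 0.36 at 24 h, and its median interaction was -1.15, beside -0.04 over all genes. Cxcl2 stood at 5.90, 6.14, 6.27, 5.68 and 6.60 on the PBS arrays at 6 h, and at 8.77, 8.52, 8.41, 8.44 and 8.49 on the allergen arrays. At 24 h its levels were 5.01, 5.34, 5.57, 5.52 and 5.40 with PBS and 5.55, 5.36, 5.66, 5.51 and 5.31 with allergen. All allergen arrays at 6 h lay above every other C3H array, and at 24 h the 2 groups overlapped. The allergen effect was thus 2.41 ± 0.25 at 6 h, 5.31-fold, and 0.11 ± 0.25 at 24 h, and the interaction was -2.30 ± 0.35 (adjusted p = 0.000588).

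Cxcl1 rose by 3.08 ± 0.33 at 6 h, from a mean of 6.75 to 9.83, and its effect at 24 h was 1.02 ± 0.33 (adjusted p = 0.084). On the PBS arrays it fell by 1.80 between 6 h and 24 h, so part of its time course was also present without allergen. Cxcl5 rose at both times, by 3.26 ± 0.32 and 1.26 ± 0.32. The interactions were -2.06 ± 0.47 for Cxcl1 and -2.0 ± 0.45 for Cxcl5 (adjusted p = 0.0257 and 0.0242), and they passed in 15 and 17 of the 20 fits without 1 array. Neither passed with a pseudocount of 1. Ccl3, which draws monocytes and neutrophils, followed Cxcl2 in pattern. It stood at 4.75, 5.0, 5.53, 4.21 and 4.80 with PBS at 6 h, at 7.79, 7.52, 7.21, 7.15 and 6.77 with allergen at 6 h, between 4.21 and 4.33 with PBS at 24 h and between 4.20 and 4.83 with allergen at 24 h. Its level at 24 h was near background in both groups, and the interaction was -2.18 ± 0.40 (adjusted p = 0.00567). It did not pass with a pseudocount of 1.

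Other chemokines moved on another schedule. Of 15 measured monocyte and lymphocyte chemokines, 10 rose at 6 h and 7 at 24 h, against 3.93% and 2.1% of all genes. The list's median effects were 0.95 and 0.66. In 1 member each the interaction was lower and higher, against 0.444% and 0.436% of all genes. The higher one was Ccl12, a ligand of the monocyte receptor Ccr2, which rose by 0.88 ± 0.22 at 6 h and 2.19 ± 0.22 at 24 h (interaction 1.32 ± 0.32, adjusted p = 0.0323, passing in 11 of 20 fits without 1 array). Between the times Ccl12 fell by 1.15 on the PBS arrays and stood 0.17 higher on the allergen arrays. Both eotaxins, chemokines of eosinophils, rose at both times. For Ccl24 the effects were 3.70 ± 0.31 and 3.16 ± 0.31 and for Ccl11 2.55 ± 0.27 and 2.14 ± 0.27, and the interactions of -0.54 ± 0.44 and -0.41 ± 0.39 did not pass (adjusted p = 0.608 and 0.669).

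The early cytokine list had 9 measured members, of which 5 rose at 6 h and 0 at 24 h, against 3.93% and 2.1% of all genes. The median effect was 0.92 at 6 h and 0.02 at 24 h. A lower interaction was found in 2 members, Tnf and Il1b, against 0.444% of all genes. Tnf, a cytokine made early by macrophages, stood at 4.56, 4.43, 4.54, 4.52 and 4.41 with PBS at 6 h and at 6.73, 6.42, 6.22, 6.59 and 5.97 with allergen. With PBS at 24 h it stood at 5.0, 4.60, 4.59, 4.96 and 4.60, and with allergen at 4.47, 5.55, 4.59, 4.82 and 4.41. The groups were apart at 6 h and mixed at 24 h, when 1 allergen array, replicate 2, lay above every PBS array. The interaction of Tnf was -1.88 ± 0.37 (adjusted p = 0.0112).

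Il1b, the main secreted cytokine of inflammasome activation, rose by 2.01 ± 0.24 at 6 h and had an effect of 0.53 ± 0.24 at 24 h. Its interaction of -1.48 ± 0.34 (adjusted p = 0.0248) did not pass without replicate 1 of allergen at 6 h or without replicate 2 of PBS at 6 h, with adjusted p up to 0.0651. Il6 rose by 0.88 ± 0.21 at 6 h, and its interaction of -0.74 did not pass.

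Cd14, Myd88, Trem1 and Clec4e of the lower set are receptors or adaptors of innate sensing, grouped here by background knowledge and not counted as a list. Cd14, the co-receptor that hands lipopolysaccharide to Toll-like receptor complexes, stood at 9.06, 9.23, 9.14, 8.97 and 9.35 with PBS at 6 h and at 11.24, 11.42, 10.37, 10.50 and 10.75 with allergen. At 24 h the levels were 8.39, 8.51, 8.47, 8.54 and 8.53 with PBS and 8.77, 8.42, 8.77, 8.97 and 8.34 with allergen. Cd14 was thus higher on each allergen array than on each PBS array at 6 h, while at 24 h the 2 groups overlapped. It rose by 1.71 ± 0.19 at 6 h and its effect at 24 h was 0.16 ± 0.19, an interaction of -1.54 ± 0.27 (adjusted p = 0.00276).

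Myd88, the adaptor shared by most Toll-like receptors and the interleukin 1 receptor family, rose by 0.93 ± 0.12 at 6 h, and its interaction was -0.87 ± 0.16 (adjusted p = 0.00628). For Trem1, a receptor of neutrophils and monocytes that amplifies Toll-like receptor signals, the allergen arrays at 6 h stood at 7.08, 6.12, 5.83, 6.26 and 6.05 and the PBS arrays between 4.41 and 4.57. At 24 h Trem1 stood between 4.38 and 5.22 with allergen. Its interaction was -1.39 ± 0.26 (adjusted p = 0.00567). Clec4e, the C-type lectin Mincle, rose by 2.16 ± 0.26 at 6 h, and its effect at 24 h was 0.36 ± 0.26. On PBS arrays Clec4e also fell between the times, by 1.14, and the interaction was -1.80 ± 0.37 (adjusted p = 0.0116).

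Neutrophil markers moved in the same direction, and their part in these results was not tested. Of 15 measured markers, 9 rose at 6 h and 1 at 24 h, against 3.93% and 2.1% of all genes, with median effects of 1.09 and 0.24. The summed intensity of the list was 2020 to 3740 with PBS at 6 h, 5610 to 14900 with allergen at 6 h, 1750 to 2140 with PBS at 24 h and 2880 to 4460 with allergen at 24 h. The allergen arrays thus lay above the PBS arrays at both times. Median sums were 3640 with PBS and 7620 with allergen at 6 h, and 1940 and 4050 at 24 h, a similar factor. A sum follows the brightest genes, so it need not move as the median effect does. The calprotectin genes S100a8 and S100a9 rose by 1.73 ± 0.46 and 1.74 ± 0.50 at 6 h, and their interactions of -1.41 ± 0.65 and -1.49 ± 0.70 did not pass (adjusted p = 0.317 and 0.33). A lower interaction passed in 4 of the 15, against 0.444% of all genes. These were Clec4e, Trem1, Il1r2 (-1.34 ± 0.30), a decoy receptor of interleukin 1, and Clec4d (-1.07 ± 0.26), a C-type lectin. Clec4d passed in 7 of 20 fits without 1 array and not under median centring, where 3 list members passed. Neither Il1r2 nor Clec4d passed with C3H arrays alone. Monocytes and macrophages also make Clec4e, Clec4d and Trem1.

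Feedback inhibitors, genes that restrain cytokine, NF-kB or kinase signalling, rose mostly at 6 h alone. Of 18 measured, 10 rose and 2 fell at 6 h, when 3.93% of all genes rose and 3.69% fell. At 24 h 1 rose and 1 fell, when 2.1% of all genes rose and 1.15% fell. In 15 of 18 the interaction estimate was negative, against 6889 of all 12393 genes, and the list's median was -0.56. The 2 that fell at 6 h were the kinase signalling inhibitors Dusp1 (-0.65) and Spry1 (-0.67), the latter named after its values were seen. The interaction passed in 3 of the 18, against 0.88% of all genes. Tnip1, a partner of the NF-kB inhibitor A20, rose by 1.04 ± 0.13 at 6 h, and its interaction was -0.92 ± 0.19 (adjusted p = 0.0116). Zc3h12a, a ribonuclease that degrades cytokine messages, had an interaction of -1.18 ± 0.26 (adjusted p = 0.0202), and Socs3, an inhibitor of cytokine receptor signalling, -1.05 ± 0.24 (adjusted p = 0.0257). Zc3h12a did not pass without replicate 1 of allergen at 6 h, and Socs3 passed in 15 of 20 fits without 1 array. With C3H arrays alone, Zc3h12a and Socs3 did not pass. Tnfaip2, induced by Tnf, rose by 1.12 ± 0.15 and had an interaction of -1.03 ± 0.21 (adjusted p = 0.0115).

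**Figure D2:**
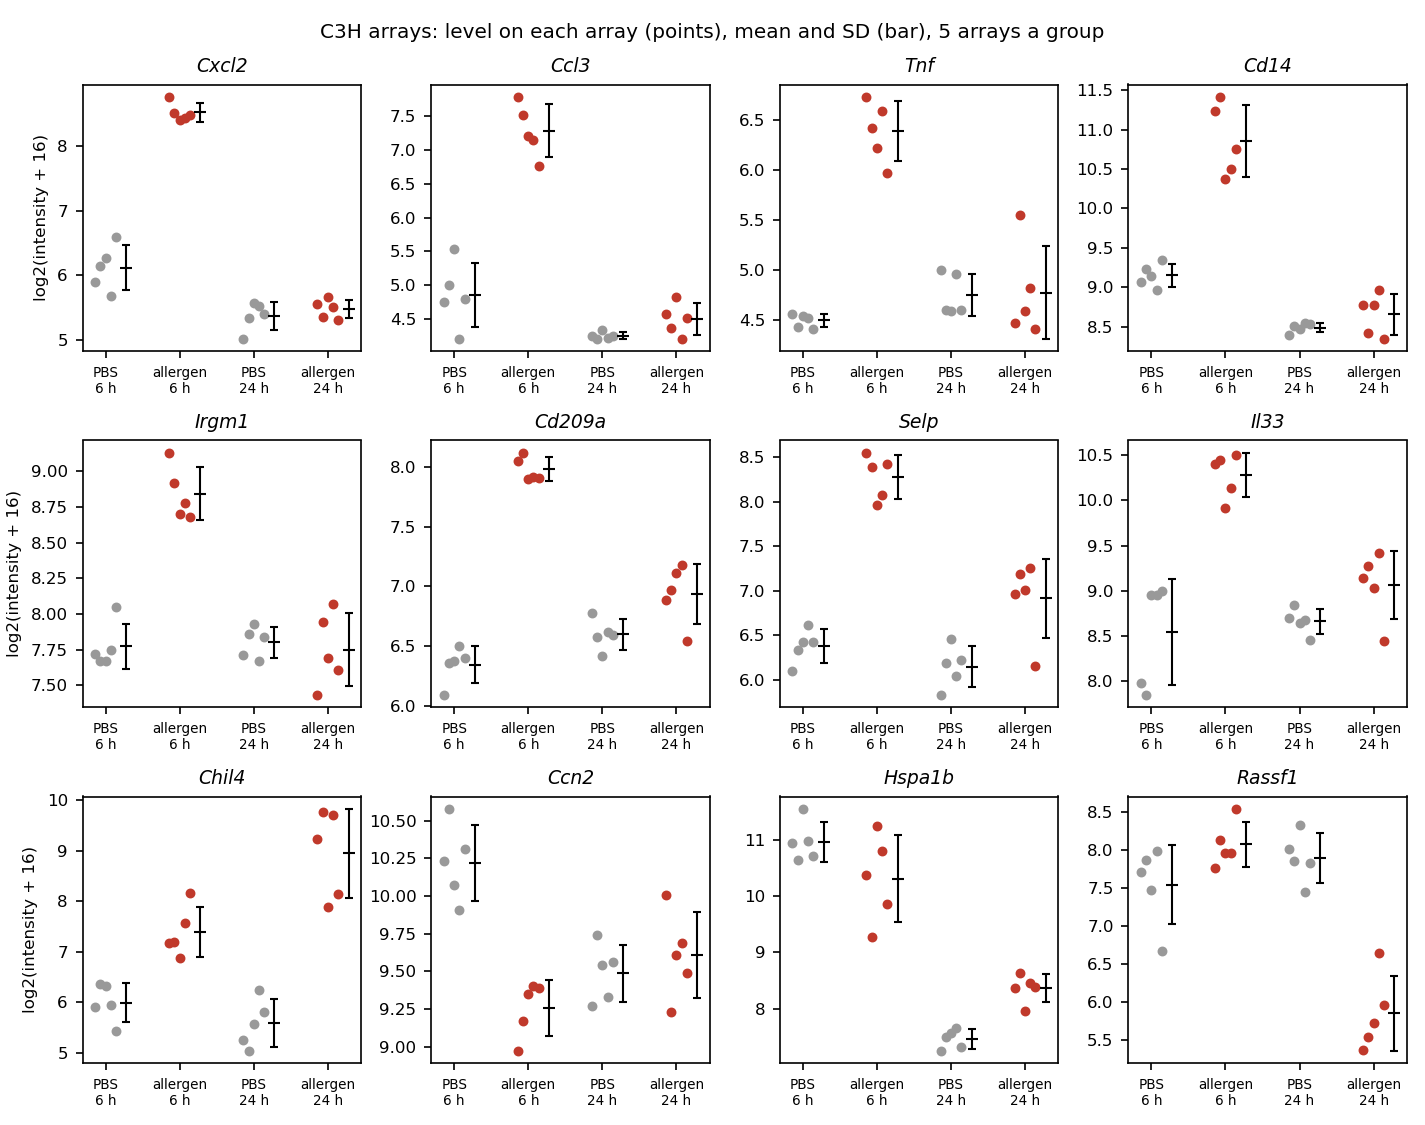
Level on each C3H array, log2(intensity + 16), of 12 genes in PBS (grey) and allergen (red) lungs at 6 h and 24 h, with the mean and SD of 5 arrays beside the points; each panel has its own vertical scale. From Cxcl2 to Il33 the allergen arrays at 6 h stand above all others, Chil4 is highest with allergen at 24 h, and Rassf1 is lowest there.

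In the interferon response list 14 of 25 members rose at 6 h and 8 at 24 h, against 3.93% and 2.1% of all genes. The list's medians were 0.52 and 0.44, and 3 members had a lower interaction, against 0.444% of all genes. These 3 were Iigp1 and Irgm1, GTPases that act against intracellular pathogens, and Irf1, a transcription factor that acts upstream of such genes. Irgm1 stood at 7.72, 7.67, 7.67, 7.75 and 8.05 with PBS at 6 h and at 9.13, 8.92, 8.70, 8.78 and 8.68 with allergen. At 24 h the PBS arrays read 7.71, 7.86, 7.93, 7.67 and 7.84 and the allergen arrays 7.43, 7.94, 7.69, 8.07 and 7.61. Only at 6 h were the groups apart, and the interaction was -1.12 ± 0.18 (adjusted p = 0.000952). Iigp1 rose at both times, by 2.24 ± 0.20 and 0.99 ± 0.20, and its interaction of -1.25 ± 0.28 (adjusted p = 0.0252) did not pass without replicate 2 of PBS at 6 h.

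Gbp2b, another interferon-induced GTPase, was not in the list. It stood at 8.08, 7.02, 7.54, 7.22 and 7.93 with PBS at 6 h, at 9.52, 9.19, 9.56, 9.68 and 9.40 with allergen at 6 h, at 7.96, 8.30, 8.02, 7.84 and 7.94 with PBS at 24 h, and at 8.24, 8.54, 8.45, 8.91 and 8.43 with allergen at 24 h. At 24 h 4 of 5 allergen arrays still lay above all PBS arrays, and the interaction was -1.41 ± 0.30 (adjusted p = 0.0168). By contrast Cxcl9, a chemokine induced by interferon gamma, rose by 2.65 ± 0.26 at 6 h and 2.19 ± 0.26 at 24 h, and its interaction of -0.46 ± 0.37 did not pass. For Cxcl10 the effects were 2.68 ± 0.22 and 1.58 ± 0.22, with an interaction of -1.11 ± 0.31 (adjusted p = 0.0797).

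The smallest adjusted p of the interaction, 9.7e-06, belonged to Cd209a, a C-type lectin of monocyte-derived dendritic cells and relative of human DC-SIGN. Its levels with PBS at 6 h were 6.09, 6.36, 6.38, 6.5 and 6.40, and with allergen at 6 h 8.05, 8.12, 7.90, 7.92 and 7.91. With PBS at 24 h they were 6.78, 6.58, 6.42, 6.62 and 6.59, and with allergen at 24 h 6.89, 6.97, 7.11, 7.18 and 6.54. At 6 h the nearest arrays of the 2 groups were far apart, and at 24 h all allergen arrays but replicate 5 still exceeded the highest PBS array. The effect was 1.63 ± 0.11 at 6 h and 0.34 ± 0.11 at 24 h, and the interaction was -1.29 ± 0.16. Over the 17 measured members of the dendritic cell and class II list the median effect was 0.24 at 6 h and 0.34 at 24 h. Of these members 4 rose at 6 h and 6 at 24 h, against 3.93% and 2.1% of all genes. Cd209a was the single member whose interaction passed, when 0.88% of all genes did.

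In the endothelial list, 2 of 21 measured genes had a lower interaction, Selp and Sele, against 0.444% of all genes. Selp, the P-selectin on which leukocytes roll, stood at 6.10, 6.34, 6.43, 6.62 and 6.43 with PBS at 6 h and at 8.55, 8.39, 7.96, 8.08 and 8.42 with allergen. At 24 h it stood at 5.83, 6.19, 6.46, 6.04 and 6.23 with PBS and at 6.96, 7.19, 7.01, 7.26 and 6.16 with allergen. The groups were apart at 6 h, and at 24 h all allergen arrays but replicate 5 lay above the PBS arrays. Selp rose at both times, by 1.90 ± 0.17 and 0.77 ± 0.17, with an interaction of -1.13 ± 0.24 (adjusted p = 0.0154). Sele, the E-selectin, rose by 1.25 ± 0.14 at 6 h, and its interaction was -0.92 ± 0.20 (adjusted p = 0.0202). Sele did not pass without replicate 1 of allergen at 6 h, with a pseudocount of 1 or with C3H arrays alone. Of the other 19 endothelial genes measured, 0 had an interaction that passed, and the list's median interaction was 0.15. Of all 21, 4 rose and 5 fell at 6 h, against 3.93% and 3.69% of all genes, with a median effect of -0.23. At 24 h 3 rose and 1 fell, against 2.1% and 1.15% of all genes, with a median effect of -0.25. The adhesion molecules Icam1 and Vcam1, chosen after their values were seen, rose at 6 h by 0.72 ± 0.15 and 1.11 ± 0.15, and their interactions of -0.53 ± 0.21 and -0.51 ± 0.21 did not pass.

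Il33, the epithelial alarmin that activates type 2 lymphocytes, was the single type 2 gene of 24 with a lower interaction, against 0.444% of all genes. It stood at 7.97, 7.84, 8.95, 8.95 and 9.0 with PBS at 6 h and at 10.41, 10.45, 9.92, 10.14 and 10.50 with allergen. At 24 h the PBS arrays read 8.70, 8.84, 8.64, 8.67 and 8.45 and the allergen arrays 9.14, 9.27, 9.03, 9.42 and 8.44. The PBS arrays at 6 h fell into a lower pair and 3 higher arrays, all below the allergen arrays, and at 24 h replicate 5 of allergen was as low as the PBS arrays. Il33 rose by 1.74 ± 0.19 at 6 h, its effect at 24 h was 0.40 ± 0.19, and the interaction was -1.34 ± 0.27 (adjusted p = 0.0115). It did not pass with C3H arrays alone. The T helper cytokines Il4, Il5 and Il13 rose at 6 h, by 0.75, 0.64 and 0.72. Their interactions of -0.69, -0.42 and -0.24 did not pass. Mean levels over the C3H arrays were 5.69 for Il4, 4.83 for Il5 and 4.69 for Il13. Il5 and Il13 were thus near background.

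Other genes of the lower set that passed in every fit without 1 array have roles outside these groups. Steap1, a membrane protein of the metalloreductase family, rose by 0.93 ± 0.16 at 6 h and had an interaction of -1.13 ± 0.23 (adjusted p = 0.0115). Pdzk1ip1, a small epithelial membrane protein, rose by 0.89 ± 0.11 and had an interaction of -1.01 ± 0.16 (adjusted p = 0.000588). Of 17 measured metallothionein and oxidative stress genes, 5 rose at 6 h and 0 at 24 h, against 3.93% and 2.1% of all genes. Among the 17, 3 had a lower interaction, against 0.444% of all genes. These were the cystine carrier Slc7a11 (-0.93), mitochondrial superoxide dismutase Sod2 (-0.62) and Txnrd1 (-0.56), which passed in 13, 18 and 6 of the 20 fits.

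A smaller group of the lower set fell with allergen at 24 h and did not pass at 6 h. Among them was Rassf1, with the largest interaction of all. Rassf1 stood at 7.70, 7.87, 7.47, 7.98 and 6.67 with PBS at 6 h and at 7.76, 8.13, 7.95, 7.96 and 8.54 with allergen at 6 h. At 24 h it stood at 8.01, 7.85, 8.33, 7.44 and 7.82 with PBS and at 5.36, 5.54, 5.72, 6.64 and 5.96 with allergen. The first 3 groups overlapped, and each allergen array at 24 h lay below every other array, the nearest pair being 6.64 and 6.67. Rassf1 fell by 2.05 ± 0.28 at 24 h, which is 4.13-fold, and its interaction was -2.58 ± 0.40 (adjusted p = 0.000588). It rests on a single probe set.

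Cldn4, a tight junction protein of epithelium, stood at 7.39, 7.79, 7.49, 7.68 and 7.99 with PBS at 24 h and at 6.54, 6.31, 6.88, 6.46 and 6.97 with allergen. At 6 h the groups overlapped, between 7.27 and 8.28 with PBS and between 7.49 and 8.74 with allergen. It fell by 1.04 ± 0.20 at 24 h, and the interaction was -1.47 ± 0.28 (adjusted p = 0.00628). Kazn, encoding kazrin of epithelial junctions, fell by 0.56 ± 0.14 at 24 h, with an interaction of -0.99 ± 0.20 (adjusted p = 0.0115). Sprr1a, a cornified envelope protein, fell by 1.12 ± 0.24 against PBS at 24 h with an interaction of -1.48 ± 0.34 (adjusted p = 0.0257). For Sprr1a the PBS arrays rose by 1.36 between the times while the allergen arrays differed by -0.12, so its interaction lay mostly in the controls. Igfbp3, a carrier of insulin-like growth factors, and the growth factor Bmp7 also fell at 24 h, by 0.74 ± 0.17 and 0.99 ± 0.18. Their interactions were -1.08 and -1.03, passing in 16 and 8 of the 20 fits.

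In the higher set, Chil4 had the largest interaction. This chitinase-like protein, also known as Ym2, is made by airway epithelium and macrophages in type 2 inflammation. It stood at 5.91, 6.36, 6.32, 5.95 and 5.42 with PBS at 6 h and at 7.17, 7.19, 6.87, 7.56 and 8.17 with allergen. At 24 h the levels were 5.26, 5.03, 5.57, 6.25 and 5.81 with PBS and 9.23, 9.77, 7.88, 9.71 and 8.15 with allergen. The groups were apart at both times, and with allergen at 24 h 3 arrays were above 9 and 2 were near 8. Chil4 rose 2.64-fold at 6 h and 10.3-fold at 24 h, an interaction of 1.96 ± 0.42 (adjusted p = 0.0178). The Chil4 interaction missed the threshold when arrays were weighted (adjusted p = 0.0529) and in the fit to the C3H arrays alone (0.0805).

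Rnase2a, a ribonuclease associated with eosinophils, stood at 4.86, 4.22, 5.41, 5.05 and 4.92 with PBS at 6 h and at 7.69, 8.11, 6.41, 6.56 and 7.99 with allergen. At 24 h it stood at 4.94, 5.08, 4.36, 5.17 and 4.48 with PBS and at 8.73, 9.60, 8.71, 9.66 and 7.75 with allergen. It was higher with allergen on every array at both times. The rise was 5.50-fold at 6 h and 17.0-fold at 24 h. Its interaction of 1.63 ± 0.42 was close to the threshold (adjusted p = 0.0492) and passed in 5 of the 20 fits. All 6 measured eosinophil markers averaged under 6 on this scale, as did 3940 of all 12393 genes. The list's summed intensity was 80.5 to 173 on the C3H arrays, and 0 of its interactions passed.

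The type 2 list as a whole had 16 of 24 members higher at 6 h and 9 at 24 h, against 3.93% and 2.1% of all genes. Its medians were 0.74 and 0.47, and its median interaction was -0.15. Arg1, the arginase of alternatively activated macrophages, rose by 1.39 ± 0.34 and 2.38 ± 0.34, and its interaction of 0.98 ± 0.48 did not pass (adjusted p = 0.342).

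Most genes of the higher set had fallen at 6 h. Ccn2, a matricellular growth factor target of mechanical and TGF-beta signalling, stood at 10.23, 10.58, 10.07, 9.91 and 10.31 with PBS at 6 h and at 8.97, 9.17, 9.35, 9.40 and 9.39 with allergen. At 24 h it stood at 9.27, 9.74, 9.54, 9.33 and 9.56 with PBS and at 10.01, 9.23, 9.61, 9.69 and 9.49 with allergen. The groups were apart at 6 h and overlapped at 24 h. Ccn2 fell by 0.96 ± 0.14 at 6 h, and the interaction was 1.08 ± 0.20 (adjusted p = 0.00561). On the PBS arrays it also fell by 0.73 from 6 h to 24 h, so the allergen arrays at 6 h were near the later level of the controls.

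Alas1, the rate-limiting enzyme of haem synthesis, stood between 9.53 and 9.99 with PBS at 6 h, between 8.67 and 9.18 with allergen at 6 h, between 9.34 and 9.65 with PBS at 24 h and between 9.25 and 9.73 with allergen at 24 h. The groups did not overlap at 6 h. It fell by 0.91 ± 0.12 at 6 h, and the interaction was 0.86 ± 0.17 (adjusted p = 0.0104). Alad, the next enzyme of haem synthesis, fell by 0.74 ± 0.16, with an interaction of 1.0 ± 0.22 (adjusted p = 0.0206). The Alad interaction did not pass without replicate 1 of allergen at 6 h or with C3H arrays alone. Plin3, a lipid droplet coat protein, fell by 0.61 ± 0.12 at 6 h, and its interaction was 0.86 ± 0.17 (adjusted p = 0.00933). Maf1, a repressor of RNA polymerase III, and Mid1ip1, a regulator of fatty acid synthesis, fell by 0.56 and 0.54 at 6 h. Their interactions were 0.61 ± 0.13 and 0.63 ± 0.13 (adjusted p = 0.0175 and 0.0113). Other probe sets of Maf1 gave interactions of 0.45 and 0.09.

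Contractile genes were in the higher set with less support. Ppp1r14a, an inhibitor of smooth muscle myosin phosphatase, fell by 0.83 ± 0.17 at 6 h and had an interaction of 1.01 ± 0.24 (adjusted p = 0.031), passing in 12 of 20 fits. Tagln, the smooth muscle protein transgelin, had effects of -0.50 and 0.52, neither past the threshold. Its interaction was 1.03 ± 0.26 (adjusted p = 0.0467), passing in 5 of 20 fits. Tagln did not pass under quantile normalization, with a pseudocount of 1 or with a replicate block. Neither Tagln nor Ppp1r14a passed with C3H arrays alone. Of 14 smooth muscle and fibroblast genes, 13 had a positive interaction estimate, against 5504 of all 12393 genes. The list's median interaction was 0.43, and 1 passed, when 0.88% of all genes did. The summed intensity of that list was 5390 to 7050 with PBS at 6 h and 4980 to 5780 with allergen at 6 h, then 5760 to 6660 and 6710 to 7470 at 24 h. It thus overlapped between treatments at 6 h and lay higher with allergen at 24 h. A sum follows the brightest genes: over the 14 genes the median effect at 24 h was 0.01, and 0 rose then.

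Hspa1b, encoding an inducible Hsp70 chaperone, had an interaction of 1.56 ± 0.33 (adjusted p = 0.0168) that arose on a steep decline in both treatments. With PBS it stood at 10.94, 10.65, 11.56, 10.98 and 10.71 at 6 h and at 7.24, 7.5, 7.57, 7.65 and 7.32 at 24 h. With allergen it stood at 10.38, 9.27, 11.25, 10.80 and 9.86 at 6 h and at 8.36, 8.64, 7.96, 8.46 and 8.39 at 24 h. All arrays at 6 h were above all arrays at 24 h, and the fall was 3.51 with PBS and 1.95 with allergen. The interaction did not pass with C3H arrays alone. The allergen effect was -0.66 ± 0.23 at 6 h, which did not pass, and 0.90 ± 0.23 at 24 h. Its 3 probe sets gave interactions of 1.69, 1.56 and 1.21, and signal from the near-identical Hspa1a cannot be told apart from it. Of 13 heat shock genes, 10 had a positive interaction estimate, against 5504 of all 12393 genes. The interaction passed in 1 of the 13, against 0.88% of all genes.

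**Figure D3:**
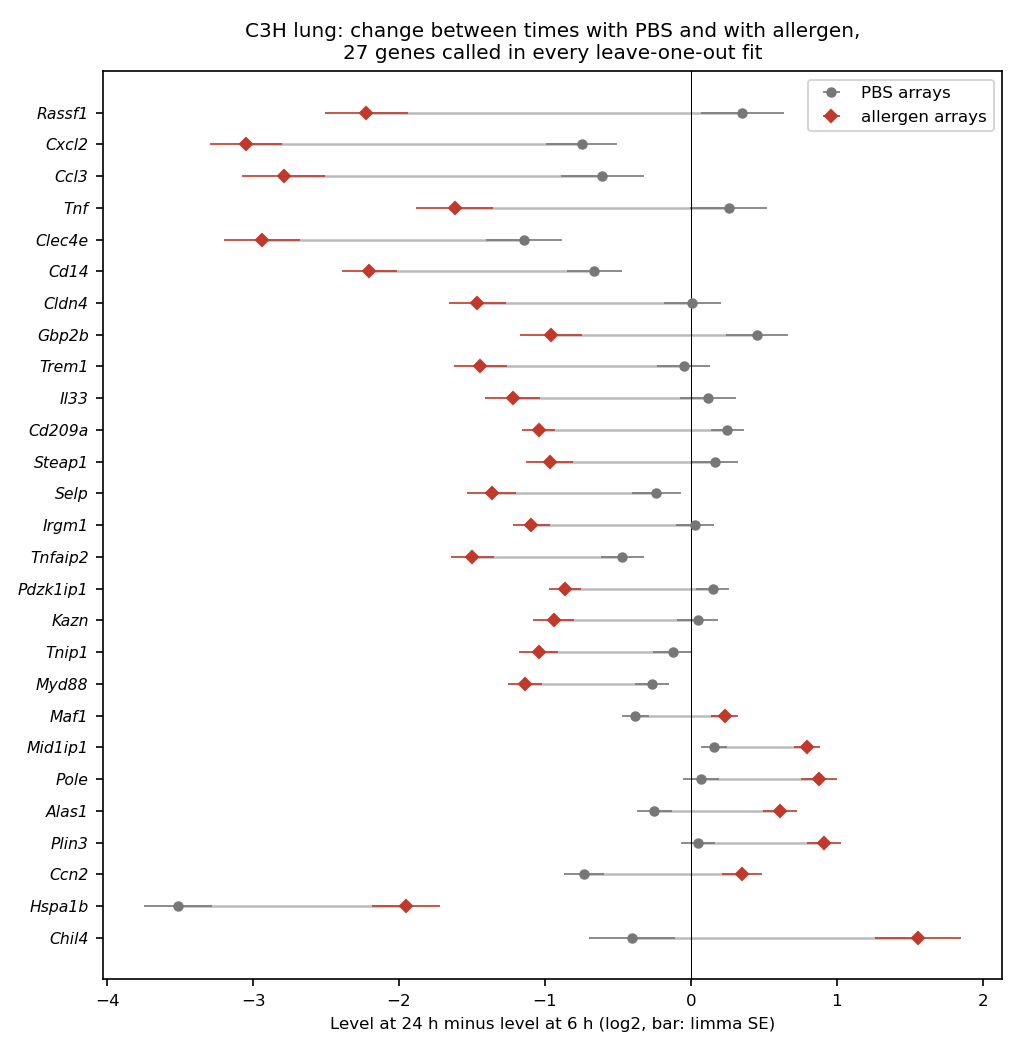
Level at 24 h minus level at 6 h (log2, limma standard error as bars) on PBS arrays (grey circles) and on allergen arrays (red diamonds) for the 27 genes that passed in all 20 fits without 1 array; the distance between the symbols is the interaction. Cxcl2 and Ccl3 stood at -3.05 and -2.79 on allergen arrays, Ccn2 moved mostly on PBS arrays (-0.73), and Hspa1b fell in both.

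The interaction is the time difference on allergen arrays minus that on PBS arrays, so the 2 can be set side by side. Over the 55 genes of the lower set the median time difference was -1.09 with allergen and -0.05 with PBS. Over the 54 genes of the higher set it was 0.76 with allergen and -0.09 with PBS. On allergen arrays 53 of the 55 fell between the times and 46 of the 54 rose, when 10.6% and 10.2% of all genes did. On PBS arrays 3.21% of all genes changed, 1.76% upwards and 1.45% downwards, and 7 of the 55 fell and 2 rose, while 6 of the 54 fell and 0 rose. The absolute PBS difference exceeded the allergen difference in 2 genes of the lower and 9 of the higher set. Over all genes the medians were -0.04 and -0.00. These counts use the arrays that chose the genes and are given as a description.

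Sorted by the effects at single times, 944 genes (7.62%) changed at 6 h and 402 (3.24%) at 24 h. The 24 h count was 188 without replicate 2 of allergen at 24 h, 620 without replicate 4, and 714 with array weights. Of these, 812 were transient, past the threshold at 6 h alone (377 up, 435 down). Another 132 were sustained, past it at both times in the same direction (110 up, 22 down), and 270 were late, past it at 24 h alone (150 up, 120 down). No gene passed at both times in opposite directions. The class is a matter of 2 thresholds, and for most class members no difference between the times was called: the interaction passed in 72 transient (8.87%), 7 sustained (5.30%) and 23 late genes (8.52%), and in 7 of the 11179 genes of no class. The number of late genes was 98 without replicate 1 of allergen at 24 h and 99 without replicate 2, and 485 without replicate 4, and the transient number was 540 without replicate 1 of allergen at 6 h.

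Transient genes that rose had a median effect of 0.66 at 6 h and 0.16 at 24 h. In 293 of 377 the effect at 24 h had the same sign. Besides the genes above, Reg3g, an antimicrobial lectin, rose by 2.19 ± 0.46 at 6 h and had 1.06 ± 0.46 at 24 h, an interaction of -1.13 ± 0.65 that did not pass. Transient genes that fell had medians of -0.55 and -0.11. They included Etv5, a transcription factor of alveolar type II cells (-1.14 ± 0.19 at 6 h, interaction 0.80 ± 0.27, adjusted p = 0.153), and Per1, a clock gene (-1.14 ± 0.21, interaction 0.85 ± 0.29, adjusted p = 0.16). In the clock list 3 of 16 members rose and 5 fell at 6 h, against 3.93% and 3.69% of all genes. Among the 16, 0 had an interaction that passed.

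Sustained genes that rose had medians of 1.13 at 6 h and 0.99 at 24 h, the largest of any class. Clca1, a secreted protein of goblet cells, stood at 4.65, 6.78, 6.60, 5.93 and 4.25 with PBS at 6 h and at 10.47, 11.27, 9.44, 9.96 and 11.29 with allergen. At 24 h it stood at 4.32, 4.08, 4.14, 6.66 and 4.15 with PBS and at 11.53, 11.86, 10.17, 11.35 and 9.95 with allergen. The groups were apart at both times, and PBS arrays varied widely. The effects were 4.85 ± 0.55 and 6.30 ± 0.55, and the interaction of 1.45 ± 0.78 did not pass (adjusted p = 0.392). Of 18 goblet cell and mucus genes 10 rose at 6 h and 11 at 24 h, 9 of them at both, against 3.93% and 2.1% of all genes. The median effect of these 18 was 0.73 and then 0.96, and 0 had an interaction that passed. Slc26a4, the anion exchanger pendrin, rose by 2.53 ± 0.33 and 3.30 ± 0.33, and Saa3, an acute phase protein made locally, by 2.94 ± 0.38 and 3.06 ± 0.38. Sustained genes that fell had medians of -0.52 and -0.51, with Tef, a clock output factor, at -0.86 ± 0.12 and -0.42 ± 0.12.

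Late genes that rose had medians of 0.14 at 6 h and 0.58 at 24 h. Cell cycle genes were found here: of 34 measured, 0 changed at 6 h and 8 rose at 24 h, when 2.1% of all genes did, with medians of 0.12 and 0.37. Mki67, the proliferation antigen Ki-67, stood at 5.33, 6.05, 5.99, 6.07 and 5.59 with PBS at 24 h and at 6.92, 6.96, 6.57, 6.82 and 6.71 with allergen. At 6 h the groups overlapped, between 4.98 and 6.07 with PBS and between 5.50 and 6.76 with allergen. Mki67 rose by 0.99 ± 0.25 at 24 h. The interaction of 0.63 ± 0.36 did not pass (adjusted p = 0.428), nor did that of any other member of the list. The nearest to the threshold was Mcm7, a subunit of the replicative helicase, with 0.78 ± 0.21 (adjusted p = 0.0715), followed by Tk1, the S-phase thymidine kinase, with 1.09 ± 0.34 (adjusted p = 0.115).

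Outside that list, Pole, the catalytic subunit of DNA polymerase epsilon, did pass. It was near background on PBS arrays at both times (4.23 to 4.70) and on allergen arrays at 6 h (4.37 to 4.64), and stood at 5.86, 5.53, 4.83, 5.50 and 4.97 with allergen at 24 h. Each of these 5 lay above all other C3H arrays, and the interaction was 0.81 ± 0.18 (adjusted p = 0.0202). Other late genes were Ccr7, the homing receptor of migrating dendritic cells (1.13 ± 0.29 at 24 h), Cd3d of the T cell receptor complex (1.92 ± 0.39) and Mmp12, the macrophage elastase (1.28 ± 0.29). Their interactions of 0.80, 0.83 and 0.41 did not pass. Late genes that fell had medians of -0.11 and -0.61.

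**Figure D4:**
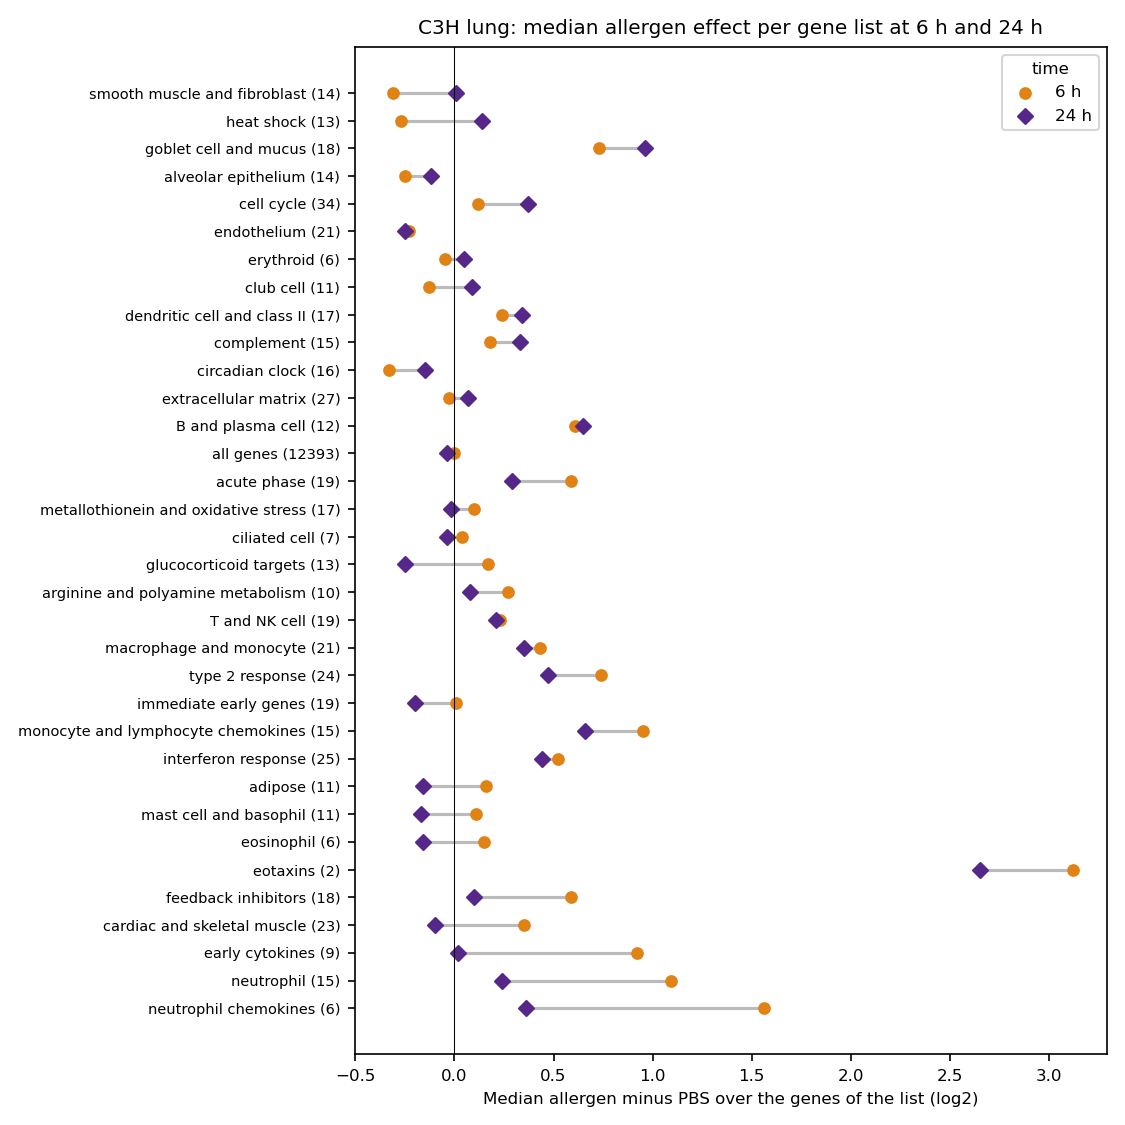
Median allergen effect at 6 h (orange circles) and 24 h (purple diamonds) in C3H lung, log2, over the genes of each list; the number measured is in parentheses and rows are ordered by median interaction. Neutrophil chemokines, neutrophil markers and early cytokines moved from 1.56, 1.09 and 0.92 towards 0, eotaxins stayed at 3.12 and 2.65, and cell cycle genes went from 0.12 to 0.37.

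Markers of muscle and adipose tissue, some of which can be carried along with lung, also varied. The median interaction of 23 cardiac and skeletal muscle genes was -0.64 and of 11 adipose genes -0.35, and 0 genes of either list passed. Summed muscle intensity ran from 3000 to 16900 over the 5 allergen arrays at 24 h alone. Of 21 macrophage and monocyte genes 7 rose at 6 h and 7 at 24 h, 3 of them at both, against 3.93% and 2.1% of all genes. The medians of these 21 were 0.43 and 0.35, and Cd14 was the 1 member whose interaction passed, when 0.88% of all genes did. Their summed intensity was 8510 to 10900 with PBS at 6 h and 11700 to 15500 with allergen at 6 h, then 9110 to 10900 and 10200 to 14500.

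The AJ arrays hold the same contrast. Their group means did not enter the C3H contrast, but they did enter the shared estimate of spread and so the p-values that chose these genes, and 27 of the 109 still passed when C3H arrays alone set the spread. In AJ lungs the interaction passed in 697 genes (5.62%), 260 of them lower (2.1%) and 437 higher (3.53%). Of the 55 genes of the C3H lower set, 28 were also lower in AJ, and 48 had a negative estimate there. Of the 54 genes of the higher set, 11 were higher in AJ and 44 had a positive estimate. Over all 12393 genes the AJ estimate was negative in 5050 and positive in 7343. The median AJ interaction was -0.80 in the lower and 0.28 in the higher set, beside 0.06 over all genes. Cxcl2 had -2.59 ± 0.35 and Ccl3 -2.25 ± 0.40 in AJ, close to their C3H values of -2.30 and -2.18, with strain differences of 0.29 ± 0.49 and 0.07 ± 0.57 that did not pass.

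Genes that rose in C3H at both times mostly rose in AJ as well, 99 of 110 at 6 h and 96 at 24 h, against 7.03% and 4.56% of all genes. Of the 377 that rose in C3H at 6 h alone, 246 rose at 6 h in AJ. For some genes the AJ estimate was near 0. Gbp2b had -0.04 ± 0.30 in AJ against -1.41 ± 0.30 in C3H, Ccn2 0.13 ± 0.20 against 1.08 ± 0.20, and Alas1 0.13 ± 0.17 against 0.86 ± 0.17. The strain differences, -1.37 ± 0.42, 0.95 ± 0.28 and 0.73 ± 0.24, did not pass (adjusted p = 0.137, 0.121 and 0.161). Rassf1 had -0.92 ± 0.40 in AJ, and its strain difference of -1.66 ± 0.57 did not pass either (adjusted p = 0.177). Late genes that fell in C3H had a median AJ effect of -0.07 at 24 h, and 12 of 120 fell there, against 3.28% of all genes.

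The strain difference of the interaction passed in 42 genes (0.339%), of which 4 were among the 109. That count was 24 without replicate 3 of C3H allergen at 24 h, 83 without replicate 4 of that group, and 149 with array weights. Ptx3, a pattern recognition molecule of the pentraxin family, rose by 1.31 ± 0.16 at 6 h in C3H and 2.79 in AJ. Its interaction was -1.03 ± 0.22 against -2.68 ± 0.22, a difference of 1.65 ± 0.32 (adjusted p = 0.0137). The C3H interaction of Ptx3 did not pass with C3H arrays alone. Hspa1b had 1.56 against 3.69 ± 0.33, a difference of -2.13 ± 0.47 (adjusted p = 0.0306). The other two, Thnsl2 (1.43 ± 0.33) and Dspp (-1.38 ± 0.33), were near the threshold in both tests. In the other direction, the antiviral genes Mx2 and Mx1 passed in AJ (-2.16 ± 0.35 and -1.32 ± 0.22) and not in C3H (0.03 ± 0.35 and 0.34 ± 0.22), and their strain differences passed (2.18 ± 0.49 and 1.67 ± 0.30).

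On the C3H arrays Mx2 stood between 4.41 and 4.93 in all 4 groups, near background throughout.

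**Figure D5:**
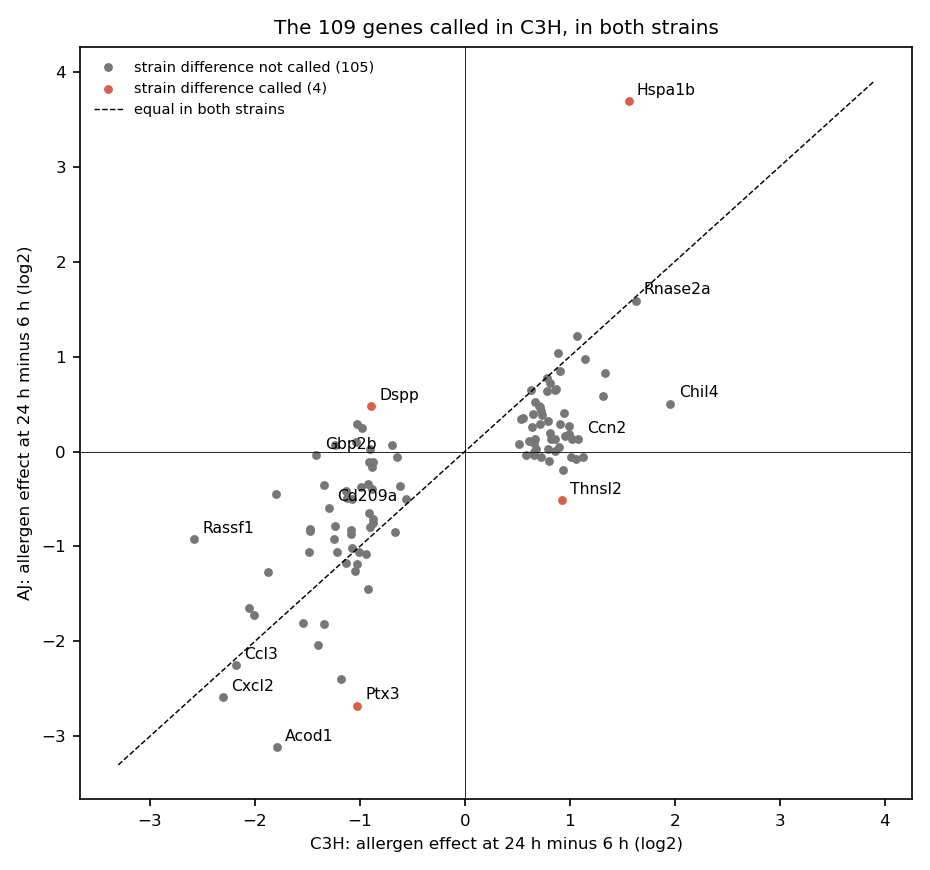
Interaction in C3H (horizontal) and AJ (vertical) lung, both log2, for the 109 genes that passed in C3H; the dashed line marks equal values, and the 4 genes in red are those whose strain difference passed. Most points share their sign, 48 of 55 on the left and 44 of 54 on the right. Over all 12393 genes the AJ estimate was negative in 5050 and positive in 7343.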

How the data were processed

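The data are Affymetrix arrays, read in one colour, of total RNA from whole lungs of mice. The deposited intensity values are linear and had been scaled by the authors to a common level, since the trimmed mean (2% off each end) was 150.036 to 150.046 on every array. The software is not given in the sources used here. No detection calls were used, and 13.6% of values lay below the pseudocount of 16.

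Of 22690 probe sets, 64 controls were left out, 20380 had 1 gene symbol, 691 several and 1555 none, and those with 1 symbol gave 12393 genes, each taken from its brightest probe set (4956 genes had several). No arrays were identical. Log2(intensity + 16) of the deposited values was fitted with limma 3.58.1 in R 4.3.3 as 8 group means over all 40 arrays, so that both strains share 1 estimate of spread, and p-values were two-sided and adjusted by Benjamini-Hochberg over all genes at 0.05. With 5 arrays a group, the number of arrays limits precision. The fit was tested on simulated data.

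Genes were named by rule: the 14 largest interactions that passed in each direction, the 8 largest effects in each class and direction, the 4 largest passing in each list, and a fixed set of allergen response genes. The members and lists were chosen with earlier results of these data known. Promoter sequences came from RefSeq, build GRCm38.p6, and matched 9887 genes. Other settings tried were pseudocounts of 1 and 64, normalization by quantiles, centring on medians, averaging a gene's probe sets, leaving out the dimmest 25% of genes, a mean-variance trend, array weights, a replicate block, C3H arrays alone and leaving out each array.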

Additional observations from a re-analysis of the deposited data

Results flagged for a closer look

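In 5 of 120 groups of 5 arrays examined over 30 genes, 1 array stood away from the others by Dixon's criterion, and chance gives about 1 group in 20. Tnfaip2, a Tnf-induced gene, was highest on replicate 1 of allergen at 6 h, at 9.68 against 9.05 on the nearest array. Irgm1 was highest on replicate 5 of PBS at 6 h, at 8.05 against 7.75. Selp was lowest on replicate 5 of allergen at 24 h, at 6.16 against 6.96. Clca1 was highest on replicate 4 of PBS at 24 h, at 6.66 against 4.32, and Mki67 was lowest on replicate 2 of PBS at 6 h, at 4.98 against 5.84.

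The interaction differed between strains by limma's test for 12 named genes, chosen after their values were seen apart from Hspa1b and Ptx3. C3H minus AJ was positive for the antiviral genes Mx1 (1.67), Mx2 (2.18) and Rsad2 (1.80), for Ptx3 (1.65) and for Thnsl2 (1.43). It was negative for the scavenger receptor Cd163 (-2.42), for Lox, which crosslinks collagen (-2.36), for the endothelial transcription factors Sox18 (-2.16) and Hey1 (-1.57), for Hspa1b (-2.13), Dspp (-1.38) and the receptor tyrosine kinase Kit (-1.17). Mx1, Cd163, Sox18 and Hey1 passed in every alternative run examined for single genes, whereas Mx2 missed the threshold in 10 and Rsad2 in 21 of them. Those runs did not include the fits that left out 1 AJ array.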

How the results depend on the processing

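No interaction changed sign in any fit. Of the 109 genes, 94 still passed with quantile normalization, 97 with median centring, 73 with pseudocount 1, 100 with pseudocount 64, 96 with the mean of all probe sets, 108 with a trend, 99 with array weights and 27 with C3H arrays alone. Higher interactions numbered 34 with pseudocount 1, and lower ones 84 with the mean of all probe sets. Array weights gave 85 higher interactions, 714 genes at 24 h, 555 late genes, 1118 AJ interactions, 149 strain differences and 843 PBS time differences. C3H arrays alone gave 32 interactions (6 higher, 26 lower), 205 genes at 24 h, 117 late genes and 251 PBS time differences. That fit held fewer arrays, and the cause of its lower counts was not tested. Of genes changed at 24 h, 64.7% rose, and 70.7% and 74.2% with quantile normalization and median centring.

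Leaving out 1 array gave 29 to 151 interactions (9 to 79 higher, 20 to 81 lower), 657 to 1008 genes at 6 h, 188 to 620 at 24 h, 540 to 880 transient, 89 to 155 sustained and 98 to 485 late genes, 592 to 825 AJ interactions, 24 to 83 strain differences, 285 to 414 PBS and 1873 to 2825 allergen time differences. Interactions were lowest without replicate 1 of allergen at 6 h. They were 53 without replicate 1 of allergen at 24 h, 50, 60 and 55 without replicates 3, 4 and 5 of PBS at 24 h, and 53 and 56 without replicates 1 and 2 of PBS at 6 h. With replicate numbers as a block 117 interactions passed (58 higher, 59 lower), but 7 of 30 same-numbered pairs correlated over 0.1 (range -0.234 to 0.408), so the numbers were not taken to pair samples. Probe sets near background limit what the low genes can show: 13 genes of the lower and 6 of the higher set averaged under 6. Of all 12393 genes, 3940 did.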

Other observations

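Of the lists not described above, these are given as counts, when 3.93% of all genes rose and 3.69% fell at 6 h and 2.1% rose and 1.15% fell at 24 h. Of 15 measured complement genes, 3 rose at 6 h and 5 at 24 h, 4 of them late, with medians of 0.18 and 0.33, and 0 interactions passed. Of 27 extracellular matrix genes 3 rose at 6 h and 5 at 24 h, and of 12 B and plasma cell genes 4 rose at 6 h and 1 at 24 h, with medians of 0.61 and 0.65. Immediate early genes, the first transcription factors induced by a stimulus, had a median effect of 0.01 at 6 h, when 3 of 19 rose, and -0.20 at 24 h. Of 14 alveolar epithelium genes 3 fell at 6 h and 1 at 24 h, and 11 had a positive interaction estimate, none of which passed by limma. Over all 12393 genes the interaction estimate was positive in 5504 and negative in 6889. Of 11 mast cell and basophil genes, 1 rose at 6 h and 0 at 24 h, 10 had a negative interaction estimate, and the median interaction was -0.38. That gene was Mcpt8, a basophil protease, named after its values were seen, with 1.59 ± 0.24 at 6 h and an interaction of -1.27 ± 0.34 that did not pass (adjusted p = 0.0559). Of 19 T and NK cell genes 2 rose at each time, of 10 arginine and polyamine genes 4 rose at 6 h and 1 at 24 h, and of 13 glucocorticoid targets 1 rose and 2 fell at 6 h and 1 rose at 24 h, and 0 interactions of these lists passed.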
